A study of Mus musculus with 4 samples.

Results

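The Dlk1-Dio3 locus on mouse chromosome 12 is a cluster of imprinted genes, and a list of 45 of its genes was examined in embryonic germ cells with and without a transgene for removing Max. The list holds 6 long genes and 39 microRNA genes. A gene counted as measured where a transcript cluster of the array, a group of probes with 1 signal, named that gene alone. By this rule 31 of the 45 were measured, among 30738 genes in all. They are Dlk1, Dio3 and 29 microRNA genes, each with 1 cluster. The other 14 are Meg3, Rtl1, Rian, Mirg, Mir433, Mir127, Mir382, Mir134, Mir668, Mir485, Mir377, Mir412, Mir369 and Mir410, which are named only in 5 clusters that carry several genes each. No value was given to any of these 14.

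DNA microarrays measured the RNA of primordial germ cells (PGCs), the embryonic precursors of oocytes and sperm, from gonads at E12.5. All 4 groups are of strain C57/BL6 and Max fl/fl, with both alleles of Max floxed so that Cre can remove exon V, and tamoxifen was given at E8.5 in all of them. FC and MC are female and male PGCs that also carry 1 copy of the Oct4dPE-CreERT2 transgene, in which a distal enhancer of Oct4 drives a tamoxifen-dependent Cre. F and M are female and male PGCs with no CreERT2. Gonads were freed of mesonephros and cells were sorted magnetically with an antibody against the surface antigen SSEA-1, a sort that is not limited to cells in which Cre acted. How many embryos make up a sample is not given in the sources used here. Each group has 1 array, so no difference between 2 arrays has a replicate check, and precision is bounded by this number of arrays. Values are the deposited log2 signals, and a difference of 1 is 2-fold.

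At an imprinted locus the copy from 1 parent is active and the other is silent. In somatic cells the paternal copy of the Dlk1-Dio3 locus expresses the protein-coding genes Dlk1, Rtl1 and Dio3, while the maternal copy expresses the long non-coding RNAs Meg3, Rian and Mirg, together with small nucleolar RNAs and one of the largest microRNA clusters of mammals. A differentially methylated region between Dlk1 and Meg3 controls this choice. PGCs erase the methylation of such regions as they colonize the gonad and set it again later according to sex. A microRNA is cut out of a hairpin in a longer transcript, and its seed, bases 2 to 8 of the mature strand, pairs with target mRNAs.

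Germ cell markers gave signals on all 4 arrays, and the F array also carried signals of Y-linked genes. All 12 germ cell markers, such as Pou5f1 and Ddx4, had signals of 5.07 to 19.81 on every array, above the median of 3.97 over all cluster values. Of all genes, 60.1% to 63.2% lay at or above it on single arrays. So did all 8 measured markers of interstitium and stroma and all 5 of coelomic epithelium and mesonephros. This count therefore does not set germ cells apart from other cells. The germ cell markers were not level between the sexes, with 12 of 12 lower in M than in F (median -0.435) and 9 of 12 lower in MC than in FC (median -0.40). Max itself was at 10.31 in FC and 10.75 in F, and at 10.33 in MC and 10.64 in M, but its probes were not examined by exon, so this is no measure of the deletion. The 4 measured Y-linked genes were at 4.50 to 5.52 in FC and 5.42 to 9.69 in F, and at 6.33 to 13.26 in MC and 6.28 to 12.82 in M. The F array thus stands apart from its label, which bears on FC minus F and on M minus F. The other contrasts, MC minus M and MC minus FC, do not use it. Across genes, Pearson's r between paired arrays was 0.992 to 0.996, over genes that are not independent replicates. Fewer cells of a type in a sample and less RNA per cell cannot be told apart in these arrays.

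Mature microRNAs are shown for 4 sets of genes, because the results turn on these genes or because members share a seed. They come from RefSeq (GRCm38.p6), are written 5′ to 3′, and have the seed in capitals. Mir493 lies between Meg3 and Rian, with its hairpin at chr12:109580233-109580315 on the + strand, and had the widest spread between arrays of all 29 microRNA genes.
miR-493-5p: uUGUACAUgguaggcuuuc
miR-493-3p: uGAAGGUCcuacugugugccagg
Mir300 (chr12:109724313-109724391, + strand) and Mir381 (chr12:109726822-109726896, + strand) are near copies in the large group of microRNA genes that runs from Mir379 to Mir410. Their 3′ strands are alike at 19 of 22 bases, and counted from the 5′ end the changes from miR-381-3p to miR-300-3p are A4G, G21U and U22C, of which A4G lies in the seed.
miR-300-3p: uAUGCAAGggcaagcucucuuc
miR-381-3p: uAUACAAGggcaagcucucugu
The genes Mir376a, Mir376b and Mir376c lie close together in the same group. The 5′ strands of miR-376b and miR-376c share a seed and are alike at 21 of 22 bases (G19U, from miR-376b-5p to miR-376c-5p).
miR-376a-3p: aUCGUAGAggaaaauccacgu
miR-376b-3p: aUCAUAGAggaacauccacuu
miR-376b-5p: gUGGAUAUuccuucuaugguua
miR-376c-5p: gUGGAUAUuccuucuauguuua
The 3′ strands of miR-379 and miR-411, whose genes are neighbours, share a seed and are alike at 20 of 22 bases (U10C and U22C, from miR-379-3p to miR-411-3p).
miR-379-3p: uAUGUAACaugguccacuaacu
miR-411-3p: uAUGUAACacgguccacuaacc
The 39 microRNA genes gave 74 mature sequences in all with 71 distinct seeds. For Mir376c, Mir487b and Mir539 only the 5′ strand was listed, and for Mir485 only the 3′ strand. Any seed shared through their unlisted strands is missed here. Among the 74 listed sequences, 3 seeds were shared by 2 genes, the 2 shown above and that of miR-494-5p and miR-410-5p. No other mature sequence in the table carries any of the 3.

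Dlk1, which encodes a transmembrane protein related to the Notch ligands, had signals above the median of 3.97 in all groups, and its differences between the sexes were larger than those with CreERT2. Its signal was 6.92 in FC and 6.91 in F, and 7.39 in MC and 7.27 in M. Both male arrays lay above both female arrays, and the difference with CreERT2 was 0.01 in female and 0.12 in male PGCs. M minus F was 0.36 and MC minus FC was 0.47. With both sex differences in 1 limma fit with CreERT2 as a block, Dlk1 was higher by 0.415 in male PGCs (SE 0.088, n = 2 arrays of each sex, 1 residual degree of freedom), with an adjusted p of 0.328 that does not pass 0.05. Genes of lists of interstitium and stroma, endothelium and Sertoli cells mostly moved the same way between the sexes, but those of a list of Leydig cells did not. Of 9 endothelial markers, 8 were above 0 in M minus F (median 0.53) and 8 in MC minus FC (median 0.91). All 5 Sertoli cell markers were above 0 in both (medians 0.73 and 1.62). Medians were -0.02 and -0.23 for pregranulosa markers, -0.31 and -0.12 for coelomic epithelium and mesonephros, and -0.25 and 0.25 for leukocytes. All 4 measured Leydig cell markers were lower in M than in F (median -0.775), 2 of them at least 2-fold. In MC minus FC 3 of these 4 were below 0 and 1 above (median -0.15). All 8 measured stromal markers were higher in M than in F, with a median difference of 0.36, and all 8 were higher in MC than in FC, with a median of 1.21 and 5 of them at least 2-fold higher. Dcn, the decorin gene, was at 6.87 in FC and 7.02 in F, and at 7.96 in MC and 7.16 in M. The 8 markers lay at 5.14 to 8.25 in FC, 5.32 to 8.60 in F, 5.75 to 9.63 in MC and 5.55 to 9.76 in M, none of them below 3.97, and their summed linear signal was 826.7 in FC, 1036 in F, 1992 in MC and 1694 in M. The germ cell markers went the other way between the sexes, as given above. The part of any of these lists in the difference of Dlk1 was not tested.

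**Figure D1:**
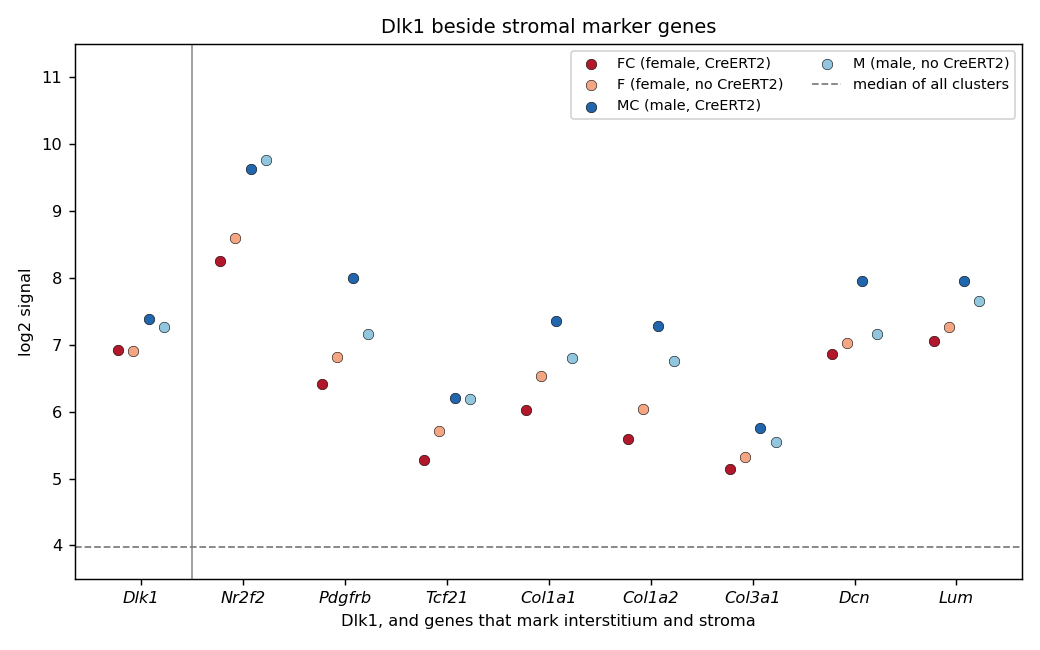
The log2 signal (y axis) of Dlk1, left of the vertical line, and of 8 stromal marker genes (x axis), 1 point per array, with FC in dark red, F in orange, MC in dark blue and M in light blue; the dashed line is the median of all cluster values, 3.97. Both male points lie above both female points for Dlk1, which runs between 6.91 and 7.39, and for all 8 markers.

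Dio3, which encodes the type 3 deiodinase that inactivates thyroid hormone, stayed at low signals in all 4 groups. It was at 3.46 in FC and 3.48 in F, and at 3.15 in MC and 3.26 in M, below the median of 3.97 on each array. Its differences were -0.02 for FC minus F, -0.11 for MC minus M, -0.22 for M minus F and -0.31 for MC minus FC. The male arrays lay below the female arrays, and the sex difference of -0.265 (SE 0.086, n = 2 arrays each) had an adjusted p of 0.381 in the limma fit. Of 6 other measured genes of thyroid hormone deiodination, transport and receptors, none was at least 2-fold higher or lower in any of the 4 contrasts. Of 13 measured genes of the Notch pathway (receptors, ligands and the targets Hes1, Hey1 and Heyl), only Jag2, a ligand, reached 2-fold, at 5.30 in MC against 6.37 in FC, a difference of -1.07.

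The microRNA genes of the locus had mostly low signals. No call of presence was used here, so the median of 3.97 served as a mark. Which RNA gave a signal, the mature strand, the hairpin or the longer transcript it is cut from, is not given in the sources used here. The median of the 29 genes was 3.77 in FC and 3.45 in F, and 4.01 in MC and 3.93 in M. Over the 897 measured microRNA genes that are not on the list, 15 of which also lie in this locus, it was 4.01 in FC and 4.02 in F, and 4.18 in MC and 4.09 in M. On their mean over the 4 arrays, 13 of the 29 (44.8%) lay at or above 3.97, against 472 of the 897 (52.6%). Of all 30738 genes, 18734 (60.9%) did. The range over the 4 arrays ran from 0.12 to 2.46 with a median of 0.50, and it was under 1 for 24 of the 29. Mir493, Mir496, Mir487b, Mir300 and Mir376a made up the other 5. Ranges of genes outside the list were not counted, so whether these are narrow or wide for such arrays is not known. MC held the highest of the 4 signals for 11 genes and the lowest for 1. This is not read as a trait of the locus. The median signal of the whole array was also highest in MC, at 4.05, and lowest in F, at 3.91. The median of the 897 others was highest in MC as well. How often MC was highest among genes outside the list was not counted. Mir370, Mir380, Mir323, Mir758, Mir666, Mir495, Mir541 and Mir409, not described further, had signals of 2.61 to 4.50 and ranges of 0.16 to 0.36.

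**Figure D2:**
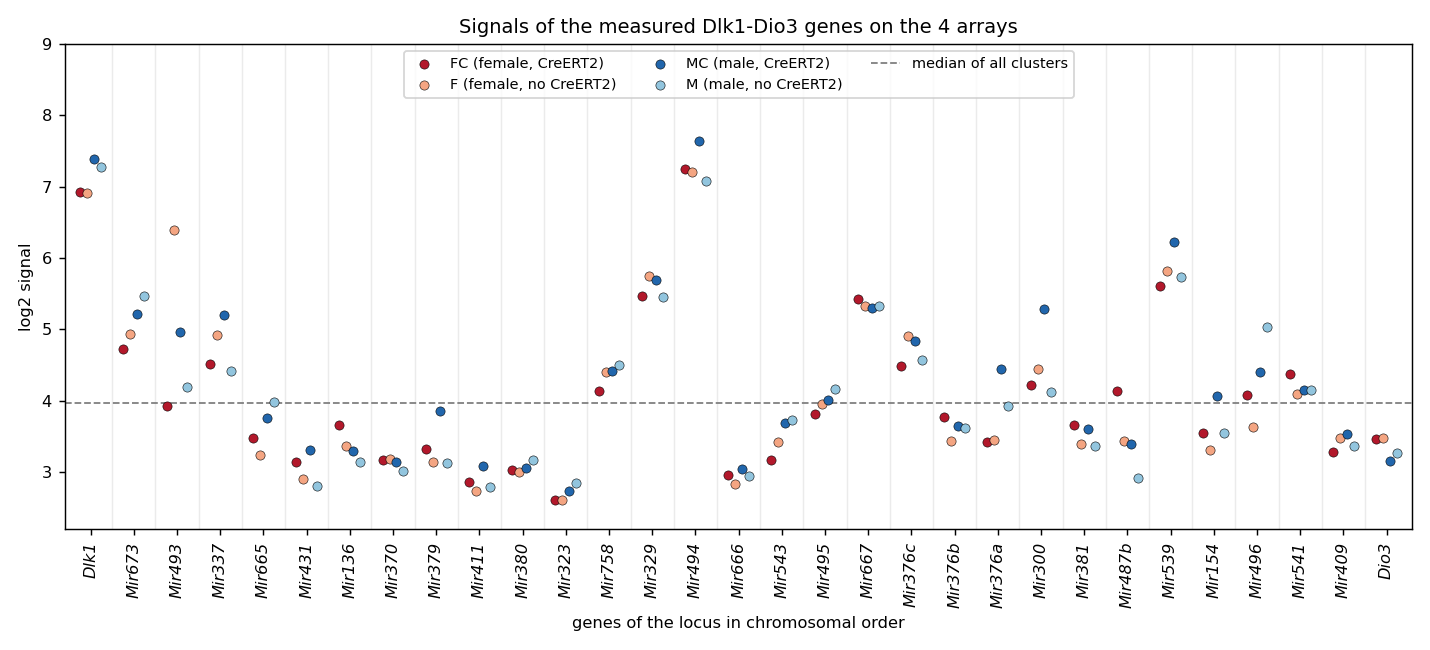
The log2 signal (y axis) of the 31 measured genes in the order of the chromosome (x axis), 1 point per array, with FC in dark red, F in orange, MC in dark blue and M in light blue; the dashed line is the median of all cluster values, 3.97. Most genes hold their 4 points within 1 log2 unit, and Mir493 spreads from 3.93 in FC to 6.39 in F.

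The 5 microRNA genes of highest mean signal lay above that mark in every group, with ranges over the 4 arrays of 0.12 to 0.75. Signals of different clusters depend also on their probes, so these signals and the medians above do not rank amounts of RNA. Mir494, whose 5′ strand shares its seed with miR-410, was at 7.25 in FC and 7.21 in F, and at 7.64 in MC and 7.08 in M. Only MC stood off from the others, with MC minus M at 0.56 and FC minus F at 0.04. Mir539 followed the same order of arrays within the male pair, at 6.22 in MC and 5.74 in M, and was at 5.61 in FC and 5.82 in F. Mir329 was at 5.47 in FC and 5.75 in F, and at 5.69 in MC and 5.46 in M, with differences under 0.30 in either direction in all 4 contrasts. The steadiest of the 29 was Mir667, at 5.42 in FC and 5.33 in F, and at 5.30 in MC and 5.32 in M. Mir673, at the Meg3 end of the microRNA genes, separated the sexes, at 5.22 in MC and 5.47 in M, against 4.72 in FC and 4.93 in F.

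Between Meg3 and Rian, Mir493 was the only one of 6 measured microRNA genes that reached 2-fold with CreERT2. Its signal was 3.93 in FC and 6.39 in F, a difference of -2.46, and 4.96 in MC and 4.19 in M, a difference of 0.77. The F array alone was high, and FC was the lowest of the 4. Of the 897 other microRNA genes, 0 were as far below 0 in FC minus F. Both contrasts that use the F array gave a large negative value for Mir493, at -2.46 in FC minus F and -2.20 in M minus F. In FC minus F all 4 Y-linked genes were below 0, with a median of -1.395. In M minus F all 4 were above 0, with a median of 1.105. On the arrays FC and F, 3 of 9 endothelial markers had signals at least 2-fold lower in FC. The median of that list was -0.53, with a summed linear signal of 1066 in FC against 1607 in F and 1 of the 9 was below 3.97 on each array. All 8 stromal markers were below 0 in FC minus F, with a median of -0.375. In M minus F, 8 of 9 endothelial markers were above 0 (median 0.53), and so were 8 of 8 stromal markers (median 0.36). The part of the Y-linked signals and of these markers in the value of Mir493 was not tested, with 1 array per group. The neighbour Mir337 also had opposite signs, at 4.51 in FC and 4.92 in F (-0.41) and at 5.20 in MC and 4.42 in M (0.78). Mir431 and Mir136, whose hairpins lie antisense to Rtl1 and whose products can cleave its mRNA, had signals under 3.97 on all arrays, and whether their probes tell the strands apart is not given in the sources used here. Mir431 was at 3.14 in FC and 2.90 in F, and at 3.31 in MC and 2.81 in M, higher with CreERT2 in both sexes by less than 2-fold. Mir136 was at 3.66 in FC and 3.37 in F, and at 3.30 in MC and 3.14 in M. The medians of the 6 genes were 0.01 for FC minus F, 0.33 for MC minus M, -0.16 for M minus F and 0.39 for MC minus FC.

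In the group from Mir379 to Mir410, with 22 measured genes, Mir300 was the only one at least 2-fold higher with CreERT2, in male PGCs. Its signal was 5.28 in MC and 4.12 in M, a difference of 1.16, and 4.22 in FC and 4.44 in F, a difference of -0.22. MC was the high array, and the other 3 lay within 4.12 to 4.44. Of the 897 other microRNA genes, 5 (0.557%) had a difference as large in MC minus M. Mir381, its near copy, was at 3.60 in MC and 3.37 in M, and at 3.66 in FC and 3.39 in F, without the high value in MC. Whether the probes of these near copies tell them apart is not given in the sources used here. On the arrays MC and M, 7 of 8 stromal markers were also higher in MC, with a median of 0.415, none of them by 2-fold, and their part in the value of Mir300 was not tested. Over the 22 genes the median difference was 0.035 for FC minus F and 0.195 for MC minus M.

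The Mir376 genes, known in mouse for editing of A to I in the seed of their products, did not share 1 pattern. Mir376a was at 4.44 in MC and 3.93 in M, and at 3.42 in FC and 3.45 in F, so that both male arrays lay above both female ones. Mir376b was at 3.64 in MC and 3.62 in M, and at 3.77 in FC and 3.43 in F. Mir376c was at 4.84 in MC and 4.57 in M, and at 4.48 in FC and 4.91 in F. Of the 3, only Mir376a separated the sexes. Mir379 and Mir411, which share the 3′ seed shown above, were both highest in MC. Mir379 was at 3.86 in MC and 3.12 in M, and at 3.32 in FC and 3.14 in F. Mir411 was at 3.09 in MC and 2.79 in M, and at 2.86 in FC and 2.73 in F. Both stayed under 3.97 on all arrays.

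Farther toward Mir410, Mir496 (Mir496a in current names) and Mir487b went opposite ways between the sexes. Mir496 was at 4.40 in MC and 5.03 in M, and at 4.08 in FC and 3.63 in F. Its M minus F of 1.40 was the largest positive value of the 29 genes, and 16 of the 897 other microRNA genes (1.78%) were as high. Mir487b was at 3.39 in MC and 2.91 in M, and at 4.13 in FC and 3.44 in F. It was higher with CreERT2 in both sexes, by 0.69 and 0.48, and lower in male PGCs in both pairs, by -0.53 in M minus F and -0.74 in MC minus FC.

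Counted at 2-fold, 1 of the 31 genes was lower in FC than in F and none was higher. Among all genes 0.508% were lower and 0.547% higher in this contrast (1.05% in either direction), and among the other microRNA genes 0.557% were lower and 1.11% higher (1.67% in either direction). In MC minus M, 1 of the 31 was higher and none lower, where 0.224% of all genes were higher, 0.475% were lower and 0.699% moved in either direction. Of the other microRNA genes, 0.669% were higher and 1.34% lower (2.01% in either direction). A count of 1 of 31 is the smallest that can differ from 0, and it is not read as an enrichment. At 1.5-fold the counts were 2 of 31 in FC minus F, where 4.80% of all genes and 7.92% of other microRNA genes passed, and 5 of 31 in MC minus M, where 4.25% and 8.92% passed. The 2 were Mir493 and Mir487b. The 5 were Mir300, Mir337, Mir493 and Mir379, all higher, and Mir496, lower at -0.63. At 3-fold only Mir493 in FC minus F remained, where 0.218% of all genes and 0.334% of other microRNA genes passed, and 0 of 31 passed in MC minus M, where 0.124% and 0.780% did.

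As a group, the microRNA genes of the locus had a median close to 0 with CreERT2 in female PGCs and slightly above 0 in male PGCs. The median difference of the 29 was 0.03 for FC minus F, as for the 897 others (0.03), against -0.01 for all genes. For MC minus M it was 0.16, against 0.07 for the others and 0.01 for all genes. Above 0 were 15 of 29 (51.7%) in FC minus F, where 490 of the 897 others (54.6%) and 47.5% of all genes were. In MC minus M 19 of 29 (65.5%) were above 0, against 545 of the 897 others (60.8%) and 50.6% of all genes. Among the 13 genes with a mean at or above 3.97 the FC minus F median was -0.21, against -0.03 for all genes at or above it.

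**Figure D3:**
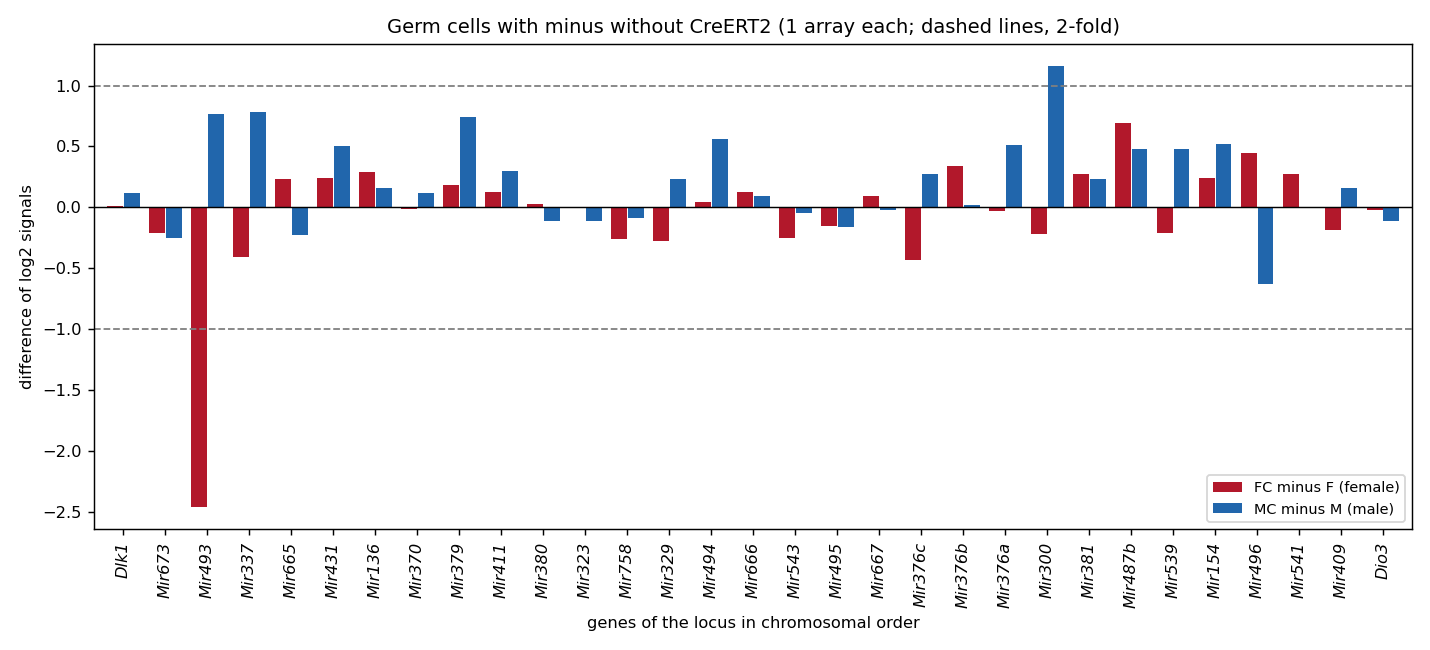
The difference of log2 signals with CreERT2 minus without it (y axis) for the 31 measured genes in the order of the chromosome (x axis), with FC minus F in red and MC minus M in blue and 1 array behind each group; dashed lines mark 2-fold. Mir493 stands at -2.46 in female PGCs and at 0.77 in male PGCs, and Mir300 passes the upper line in male PGCs at 1.16.

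A limma fit over all 4 arrays, with sex as a block, estimated the CreERT2 effect that both sexes share, with n = 2 arrays with CreERT2 and 2 without, and Benjamini-Hochberg adjustment over all genes. No member passed an adjusted p of 0.05, and 0% of all 30738 genes did. At an unadjusted p under 0.05 there were 3 of 31 members, where 7.30% of all genes passed. The 3 were Mir487b with a common difference of 0.585 (SE 0.102), Mir431 with 0.37 (SE 0.112) and Mir154 with 0.38 (SE 0.116), each with an adjusted p of 0.663 in limma. All 3 were higher with CreERT2 in 2 of 2 sexes. The fit counts disagreement between the sexes as spread, so a choice by its p favours this agreement, which is no separate check. Mir154 was at 3.55 in FC and 3.31 in F, and at 4.06 in MC and 3.54 in M. Without the F array only MC minus M remains, in which Mir487b was at 0.48, Mir431 at 0.50 and Mir154 at 0.52. This contrast is part of the common difference by which the 3 were picked, so these values are no separate check. Genes whose difference lay in 1 sex counted as spread in this fit. Mir493 had a common difference of -0.845 (SE 0.947, adjusted p of 0.821 in limma) and Mir300 of 0.47 (SE 0.411, adjusted p of 0.774).

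Between the sexes, 10 of the 31 genes had both male arrays above both female arrays and 5 had both below. The 10 were Dlk1, Mir673, Mir665, Mir380, Mir323, Mir758, Mir543, Mir495, Mir376a and Mir496. The 5 were Dio3, Mir136, Mir370, Mir667 and Mir487b. Among all genes 21.5% lay above in this way and 20.9% below, and among the other microRNA genes 32.9% lay above and 8.03% below. The 10 of 31 (32.3%) are close to the share of the other microRNA genes, and the 5 of 31 are 16.1%. Some of these gaps were small, such as that of Mir667, whose male arrays were at 5.30 and 5.32 and whose female arrays were at 5.33 and 5.42.

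At 2-fold, M minus F held 1 higher gene, Mir496 at 1.40, and 1 lower, Mir493 at -2.20, of the 31. Among all genes 0.729% were higher and 0.605% lower (1.33% in either direction), and among the other microRNA genes 4.24% were higher and 0.557% lower (4.79% in either direction). Both values use the F array. MC minus FC, which does not use it, held 3 higher and 0 lower, namely Mir300 at 1.06, Mir493 at 1.03 and Mir376a at 1.02. Here 0.979% of all genes were higher and 1.42% lower (2.40% in either direction), and 3.68% of the other microRNA genes were higher and 0.446% lower (4.12% in either direction). These 3 lie just past the threshold, and under 3 other scalings of the arrays (quantile normalization, median centring and cyclic loess) none of them reached it, with values of 0.91 to 0.96. Mir493 thus was lower in M than in F and higher in MC than in FC. At 1.5-fold, 3 of 31 passed in M minus F, where 6.58% of all genes and 12.0% of other microRNA genes did, with Mir665 at 0.74 as the third. In MC minus FC, 6 of 31 passed, where 9.06% and 12.8% did, with Mir337 at 0.69 and Mir539 at 0.61 also higher and Mir487b at -0.74 lower. At 3-fold, 1 of 31 passed in M minus F, again Mir493, where 0.234% of all genes and 9 of the 897 other microRNA genes did, and 0 of 31 in MC minus FC, where 0.527% and 0.669% did.

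The medians of the microRNA genes between the sexes were -0.01 for M minus F and 0.25 for MC minus FC. The 897 others had 0.07 and 0.12, and all genes had -0.01 and 0.02. Above 0 were 14 of 29 (48.3%) in M minus F, where 544 of the 897 others (60.6%) and 47.3% of all genes were. In MC minus FC 22 of 29 (75.9%) were above 0, against 614 of the 897 others (68.5%) and 52.2% of all genes. The stromal markers given above with Dlk1 moved most in the same pair, MC and FC, and Cst9, a Sertoli cell marker, was at 12.63 in MC against 4.14 in FC, and at 11.12 in M against 6.21 in F. The germ cell markers had medians of -0.435 in M minus F and -0.40 in MC minus FC. The part of these markers in the medians was not tested.

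**Figure D4:**
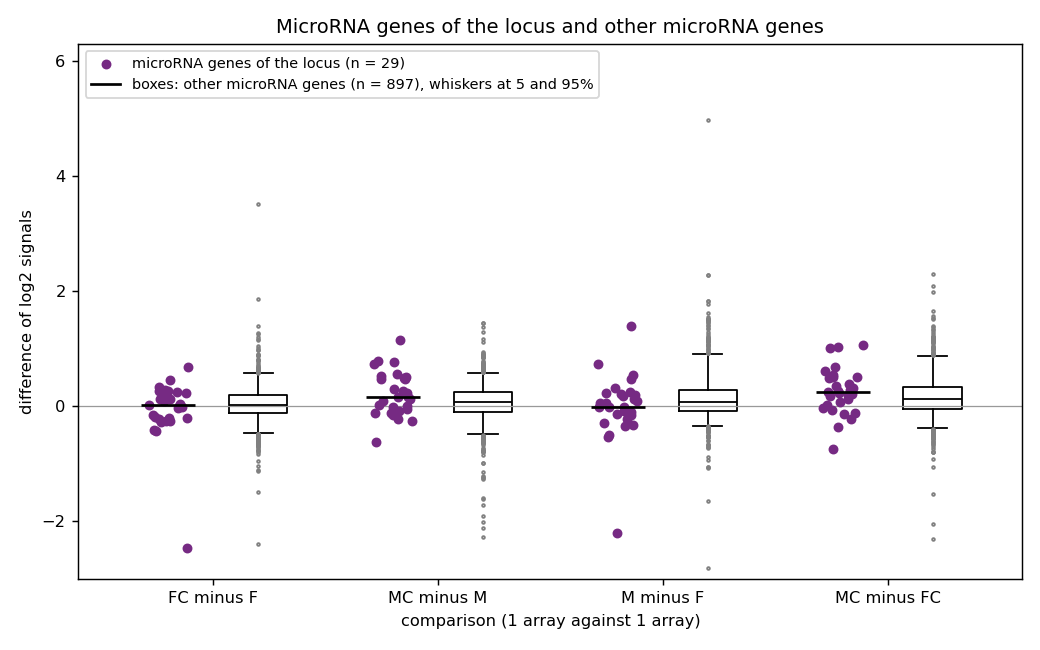
The difference of log2 signals (y axis) in the 4 contrasts (x axis) for the 29 microRNA genes of the locus (purple points with a bar at their median, spread sideways to be seen) and the 897 other microRNA genes (boxes from the lower to the upper quartile with a line at the median, whiskers at percentiles 5 and 95, grey points beyond). The bars of the locus lie at 0.03, 0.16, -0.01 and 0.25, and the lines of the boxes at 0.03, 0.07, 0.07 and 0.12. Mir493 is the low point at -2.46 in FC minus F and at -2.20 in M minus F.

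The limma fit of the sex difference, with CreERT2 as a block and n = 2 arrays of each sex, gave no member and 0% of all genes at an adjusted p of 0.05. At an unadjusted p under 0.05 there were 7 of 31 members, where 13.4% of all genes passed, 5 of them higher in male PGCs and 2 lower. Mir673 had a common difference of 0.52 (SE 0.0827, adjusted p of 0.326 in limma). It was higher in male PGCs in 2 of 2 pairs, an agreement that a choice by the p of this fit favours. Mir376a had 0.75 (SE 0.178, adjusted p of 0.339), and the other 3 that were higher were Dlk1, Mir543 at 0.41 and Mir665 at 0.51. The 2 that were lower were Mir487b at -0.635 (SE 0.102, adjusted p of 0.326 in limma) and Mir136 at -0.295. Without the F array this fit has no residual degree of freedom, so only MC minus FC remains without it. In that contrast Mir673 was at 0.50, Dlk1 at 0.47, Mir376a at 1.02, Mir543 at 0.51, Mir665 at 0.28, Mir487b at -0.74 and Mir136 at -0.36. It is part of the common difference by which the 7 were picked, so it is no separate check of them. Mir543 was at 3.68 in MC and 3.73 in M, and at 3.17 in FC and 3.42 in F. Mir665 was at 3.75 in MC and 3.98 in M, and at 3.47 in FC and 3.24 in F.

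Other genes of the region and of its pathways, except Tet1, differed by less than 2-fold with CreERT2. Of 24 further microRNA genes of the locus, 15 were measured and none reached 2-fold in FC minus F or MC minus M. Between the sexes 2 did. Mir544 was at 8.84 in MC against 6.54 in FC, and at 7.98 in M against 7.32 in F. Mir453 was at 6.27 in MC against 5.97 in FC, and at 6.89 in M against 5.67 in F. None of 10 measured genes that flank the locus reached 2-fold in any contrast, nor did any of 11 measured genes of microRNA processing, among them Drosha, which cuts the hairpin out of the transcript, at 11.54 in FC and 12.08 in F, and at 11.81 in MC and 12.02 in M. Of 14 genes that set, protect or remove the methylation of imprints, Tet1, a dioxygenase that oxidizes 5-methylcytosine, was the only one at 2-fold, at 8.76 in FC against 9.78 in F, and at 9.77 in MC against 9.69 in M.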

How the data were processed

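The 4 arrays, 1 per group, were analysed as the authors deposited them, as log2 signals of 65956 transcript clusters. The study's methods describe normalization in R by robust multiarray analysis after background subtraction, on a Mouse Genome array, whereas the labels name another labelling kit and Transcriptome Analysis Console, so which software and array type made the values is not settled here. The annotation build is not given in the sources used here. Clusters were named from the array's gene table, with 330 symbols updated to GRCm38.p6. Of the clusters, 30638 had 1 symbol, 654 had several symbols of 1 current gene, 1522 had several genes and were left unnamed, and 33142 are not in that table. A gene is its cluster of highest mean. Members and 18 gene lists were chosen with earlier results of these data known. Named members are the long genes, the 5 microRNA genes of highest mean, those at 2-fold in a contrast and those with a shared seed; listed genes are named where they reached 2-fold, and Drosha and some markers as examples. Other members are named after their values were seen.

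Contrasts are FC minus F, MC minus M, M minus F and MC minus FC, with no p-value, since each group has 1 array. Common effects were fitted with limma 3.58.1 in R 4.3.3 (lmFit and eBayes, two-sided, Benjamini-Hochberg over all genes), with 1 residual degree of freedom, and the fit was tested on simulated data. Whether the 2 arrays of a fit's group come from separate litters is not given, so its p-values measure the spread between these arrays only. Alternatives were quantile normalization, median centring, cyclic loess, the mean of a gene's clusters, a filter at the median of 3.97 over all cluster values, thresholds of 1.5-fold and 3-fold and, for the fits, no block or a variance prior with a trend. Counting the clusters of several genes was added after seeing the data. Python 3.11.15 with numpy 2.4.6, pandas 2.3.3 and matplotlib 3.10.9 was used.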

Additional observations from a re-analysis of the deposited data

Results flagged for a closer look

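Mir493 went opposite ways with CreERT2 in the 2 sexes, by more than 1.5-fold each way. FC minus F was -2.46 and MC minus M was 0.77, so that FC minus F less MC minus M was -3.23. The same 4 signals set the sexes apart in opposite ways, with M minus F at -2.20 and MC minus FC at 1.03, and M minus F less MC minus FC was also -3.23. Both are the same sum of the same 4 arrays. With 1 array per group, this difference was not tested. The F array, at 6.39, holds the high value, and it is the array labelled female with signals of 4 Y-linked genes, whose part in this was not tested. MC and M had Mir493 at 4.96 and 4.19.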

How the results depend on the processing

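At 1.5-fold the counts were 2 of 31 in FC minus F, 5 in MC minus M and 6 in MC minus FC, and at 3-fold they were 0 in MC minus M, 1 in M minus F and 0 in MC minus FC. The count of 3 in MC minus FC became 0 with quantile normalization, 0 with median centring and 0 with cyclic loess. Among the 13 microRNA genes at or above 3.97 the median was -0.21 in FC minus F and 0.36 in MC minus FC, with fewer genes tested, so the median of FC minus F, 0.03 over all 29, turned below 0. Median centring gave 0.14 for MC minus FC, and it moved the median of all genes in that contrast to -0.09 and in M minus F to -0.10. The other counts and medians kept within 1.5 times or 0.1. Of 60 differences of named members, 7 were at 2-fold, and 9 of their 28 values under scalings and the mean of clusters fell under it, all in MC minus FC. In 4 of the 60, none larger than 0.06, the sign changed in 7 of 240 values. Neither limma fit called a member at an adjusted p of 0.05 under any alternative run. At an unadjusted p under 0.05 the CreERT2 fit held 1 to 6 of 31 members, where 4.38% to 7.30% of all genes passed, and 0 of 14 with the filter, where 7.80% did. The 6 (19.4%) came with the trend in the variance prior, where 6.43% of all genes passed. The 1 (3.23%) came with no block, where 4.38% did. The sex fit held 7 to 10 of 31, where 12.2% to 16.3% passed, and 2 of 14 with the filter, where 16.6% did. The 10 (32.3%) came with the trend in the variance prior, where 12.2% of all genes passed. The 7 (22.6%) under quantile normalization stood against 16.3%. With the 5 clusters of several genes the counts did not change. No replicate could be left out and no replicate numbers pair arrays, since each group has 1 array, and the fits pair arrays only by sex or by CreERT2. The number of arrays limits the precision, and signals near the bottom of the scale limit what differences of low genes can show.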

Other observations

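The 5 clusters that carry several genes each, and in which the 14 unmeasured members are named, also differed little. Their signals were 3.22 to 7.05 in FC and 3.23 to 6.87 in F, and 3.17 to 7.67 in MC and 3.33 to 7.24 in M. Their differences ran from -0.13 to 0.18 for FC minus F, from -0.20 to 0.43 for MC minus M, from 0.10 to 0.46 for M minus F and from -0.05 to 0.62 for MC minus FC, and none reached 2-fold.

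Most imprinted genes elsewhere in the genome stayed under 2-fold in all 4 contrasts. Between the sexes, 3 of 13 measured genes expressed from the maternal copy and 1 of 20 from the paternal copy reached 2-fold in M minus F, where 1.33% of all genes did, and 3 of 13 and 1 of 20 did in MC minus FC, where 2.40% did. The median differences of these lists were 0.05 and 0.08 in M minus F, and 0.07 and 0.22 in MC minus FC. Stromal markers had medians of 0.36 in M minus F and 1.21 in MC minus FC, and the 5 Sertoli cell markers of 0.73 and 1.62, and their part in these values was not tested. Of the 13, Phlda2, which restrains growth of the placenta, was at 14.65 in FC and 10.19 in F, and at 6.66 in MC and 7.43 in M. It was the only one of them at 2-fold with CreERT2, higher by 4.46 in female PGCs, on a contrast that uses the F array. Grb10, an adaptor of growth factor receptors, was at 11.24 in MC against 9.76 in FC, and at 11.15 in M against 9.97 in F. Zim1, a zinc finger gene, was at 7.57 in MC against 6.35 in FC, and at 7.57 in M against 6.46 in F. Of the 20, none was at 2-fold with CreERT2. Peg10, a gene derived from a retrotransposon, was at 11.68 in MC against 10.08 in FC, and at 11.52 in M against 10.93 in F. Kcnq1ot1, an antisense non-coding RNA, was at 5.76 in MC against 5.07 in FC, and at 6.11 in M against 4.99 in F.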
